A study of Mus musculus with 31 samples.

Results

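The comparison described here is mouse lung 18 h after intravenous oleic acid against mouse lung 18 h after intravenous saline. Its members were chosen by sample title, and there were 5 of the 31 arrays of the series: 3 arrays of oleic acid and 2 of saline. All mice were female C57BL/6 aged 6 weeks. The treated mice were given oleic acid into the tail vein, for which the labels state a dose of 1.2 µl per g and an injected volume of 200 µl, and the control mice received 200 µl of saline, which the labels call physiological serum. Both groups were anaesthetised with xylazine and ketamine for the injection. Whole-lung RNA was labelled with 1 dye and read on Agilent arrays, and the series holds further arrays from 1 h to 24 h after injection, of which 2 saline and 3 oleic acid arrays at 24 h are used below for comparison. The labels give no statement on pooling and do not name separate animals for the replicates. The p-values measure the spread between samples within groups, taken over 12 groups of the series, and this spread may be technical.

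Oleic acid is a long-chain monounsaturated fatty acid. Given into a vein it reaches the lung first, where it injures capillary endothelium and alveolar epithelium, and it is used in animals as a model of acute lung injury with edema. Fatty acids entering cells are also ligands of the PPAR nuclear receptors, which switch on genes of fatty acid oxidation and lipid droplets. The comparison asks what of the lung's transcript levels differed from saline at 18 h.

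The design set a limit that holds for every value of the comparison. Slide 3 held the 2 saline arrays and slide 4 held the 3 oleic acid arrays, so treatment and slide cannot be told apart at 18 h. Slide 4 also held the 2 saline arrays of 24 h, which gave a second comparison within 1 slide but across times after injection. Between 54.1% and 82.4% of the spots were well above background on the 5 arrays, and the number of arrays limits the precision: the median standard error of a difference was 0.30 on the log2 scale. Levels below are log2 signals relative to the array's 75th percentile, so 0 is the level of the 75th percentile, and differences are oleic acid minus saline. The lung label was borne out by its markers on all 5 arrays: surfactant protein C (Sftpc), of alveolar type 2 cells, read 9.29 to 9.99, the club cell secretoglobin Scgb1a1 read 9.42 to 10.05 and the tight junction protein of endothelium Cldn5 read 6.16 to 6.73.

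The arrays of 18 h differed in their dim signal across both treatments. Oleic acid replicate 2 and saline replicate 2 had 82.4% and 77.5% of spots above background, against 54.1% to 59.8% on the other 3 arrays. Across all features, the Pearson correlation between those 2 arrays was 0.986, higher than that of oleic acid replicate 2 with oleic acid replicate 1 (0.951) or replicate 3 (0.945) and that of saline replicate 2 with saline replicate 1 (0.949). Among the other 3 arrays, oleic acid replicates 1 and 3 correlated at 0.984, higher than either did with saline replicate 1 (0.971 and 0.972). These are correlations across genes, which are not independent replicates.

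At 18 h, few features differed from saline after adjustment. Of 28904 features (genes, or probes without a current symbol), 7 passed an adjusted p of 0.05 in limma, or 0.0242%, and all 7 were lower in oleic acid. The count was 4 without any 1 of the oleic acid arrays, 12 without saline replicate 1 and 39 without saline replicate 2. At an unadjusted p of 0.05, 135 features were higher (0.467%) and 561 were lower (1.94%). Together they were 2.41% of features, below the share of 0.05 that this threshold would pass on average if no feature differed. Every oleic acid array read above both saline arrays for 5.23% of the features with a value on all 5 arrays, and below both for 6.66%. When the saline arrays of 24 h were added as controls, oleic acid arrays read above all 4 saline arrays for 0.771% and below all 4 for 2.69%. The median difference over all features was -0.02 at 18 h, and the median size of a difference was 0.16. Over all features, oleic acid of 18 h minus saline of 24 h had a median of -0.12. Oleic acid minus saline at 24 h had the same rounded median, -0.12.

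Of the 7 features, 1 was well above background on all 5 arrays. It was an intergenic RNA probe on chromosome 7 that the files place at chr7:3338764-3338823, minus strand, in the mouse build mm9, with no gene name. Its sequence is shown because it carried the only called difference that was measured on both sides.
A_30_P01028106: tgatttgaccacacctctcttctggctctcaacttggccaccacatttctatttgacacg
This probe read -2.28 and -1.23 on the saline arrays and -4.46, -4.01 and -4.56 on the oleic acid arrays, so the groups did not overlap. The difference was -2.59 (SE 0.42, limma adjusted p = 0.0299). Both saline arrays of 24 h (-3.17 and -1.51) also lay above the oleic acid arrays, and oleic acid minus saline at 24 h was -1.98. With only probes above background on all 5 arrays of 18 h in the fit, no feature was called and this probe's adjusted p was 0.104. Leaving out any 1 oleic acid array also ended the call: its adjusted p was 0.198, 0.0559 and 0.229 without replicates 1, 2 and 3. The difference was -2.06 without saline replicate 2 and -3.11 without saline replicate 1. The probe was still called after normexp background correction (limma adjusted p = 0.0240) and in the deposited table (0.0152). It was not called after quantile normalization or with arrays centred on the median (0.412).

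The other 6 features were not well above background on any oleic acid array, so only a lower bound can be given (the brighter group's mean against the dimmest signal still above background). They comprised the odorant receptor gene Olfr73, which was at least 6.30-fold lower in oleic acid (adjusted p = 0.000327), and 5 probes without a gene name, whose bounds ran from 2.98-fold to 9.81-fold. Olfr73 was not called after normexp (adjusted p = 0.138), after quantile normalization (1.00), in the deposited table (0.452), with the 5 arrays of 18 h alone (1.00) or the 10 arrays of 18 h and 24 h (0.231), with trend and robust eBayes (0.0808), with the replicate block (0.184) or with saline groups pooled (0.965 and 0.460), and its adjusted p ranged from 2.92e-05 to 0.0184 under its other alternatives. Of the 7 features, 2 remained called after normexp, 2 in the deposited table and 0 after quantile normalization. Olfr73 read -1.66 and -3.64 on the saline arrays of 18 h. On every other array of 18 h and 24 h it read between -7.13 and -5.74. Odorant receptors are known from olfactory neurons, and the 2 saline arrays of 18 h were its highest readings among these 10 arrays.

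All 7 called features were read in the upper rows of the array, those above its midline, which held 50.9% of all features. Of the 334 features lower by over 1 with an unadjusted p under 0.05, 88.0% lay in the upper rows, against 36.0% of the 25 features higher by over 1. On saline replicate 1, 986 of the 31640 dim spots (those whose median over the arrays of other times was below -3) were raised by over 2 on the log2 scale, and 88.0% of the raised spots lay in the upper rows. The corresponding shares were 33.8% and 24.3% on oleic acid replicates 1 and 3. In saline replicate 2 and oleic acid replicate 2, 9879 and 10912 dim spots were raised, evenly over the rows (51.0% and 48.8% in the upper rows). Both saline arrays of 18 h lay in the second row of arrays on their slide and the 3 oleic acid arrays in the first. Position on the slide and treatment thus cannot be told apart at 18 h either. At 24 h, oleic acid replicates 1, 2 and 3 lay in the second row, with 70.7%, 85.7% and 86.2% of raised dim spots in the upper rows. The share was 74.2% on saline replicate 2 of 24 h (second row) and 48.7% on saline replicate 1 of 24 h (first row). With features of the lower rows alone, an alternative chosen after seeing the data, no feature was called at 18 h, and 216 of 14180 had an unadjusted p under 0.05.

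**Figure D1:**
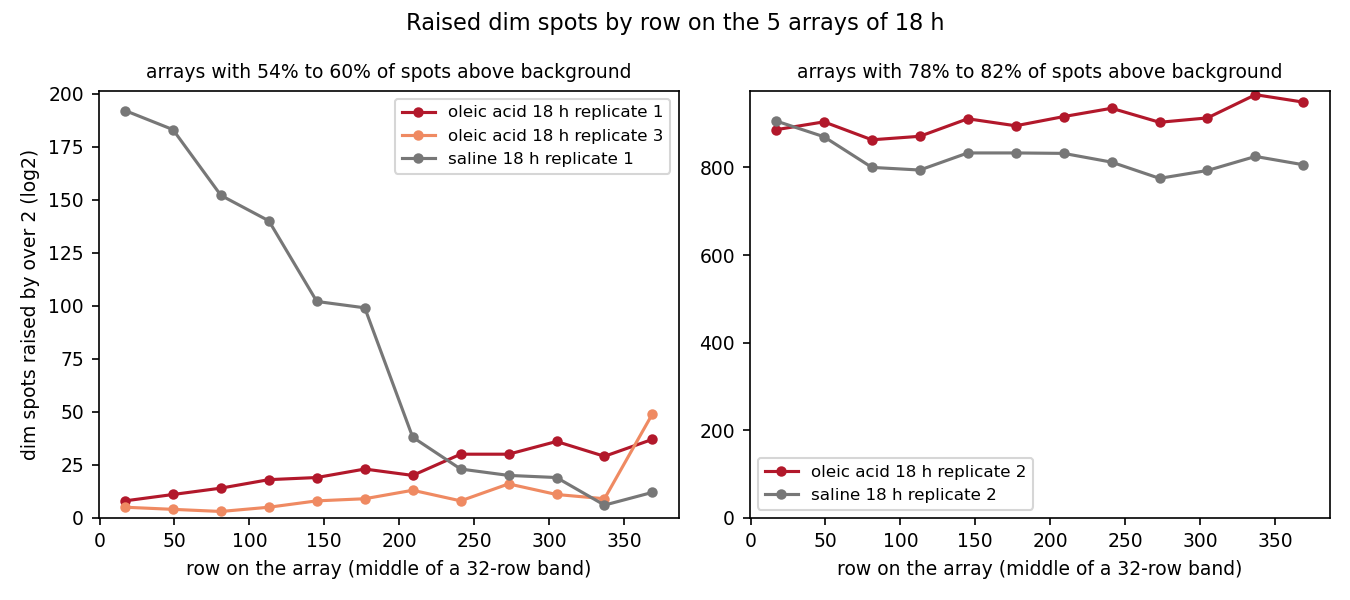
Number of dim spots raised by over 2 (log2) above the median of the other arrays, in bands of 32 rows of the array, for the 5 arrays of 18 h; the panels split the arrays by their share of spots above background. On saline replicate 1 the count falls from 183 in the second band to 12 in the last, while oleic acid replicates 1 and 3 stay at 49 or below in every band.

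**Figure D2:**
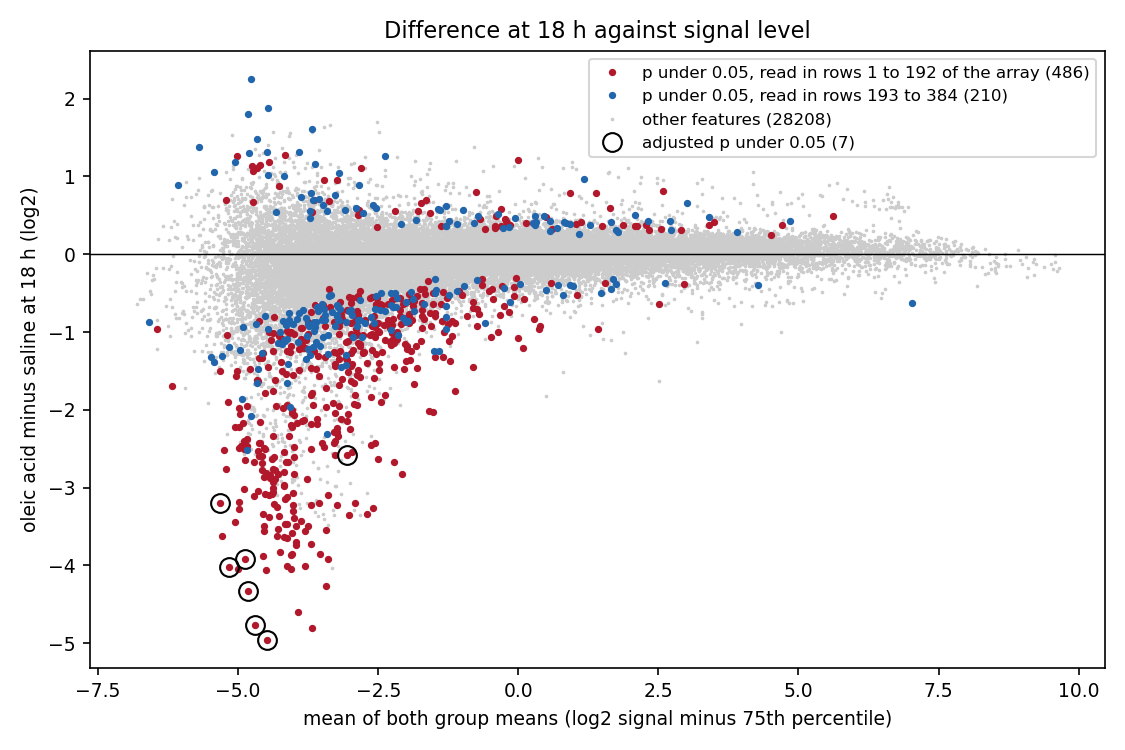
Difference at 18 h (oleic acid minus saline, log2) against the mean level, 1 point per feature; coloured points have an unadjusted p under 0.05, red in the upper rows of the array and blue in the lower rows, and circles mark the 7 called features. The large negative differences are at low levels and are mostly red.

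Among genes with a symbol that were above background on all 5 arrays, the largest negative differences did not pass the adjustment. Mars2, the mitochondrial methionyl-tRNA synthetase, read -0.72 and -1.05 on the saline arrays and -3.69, -3.65 and -3.32 on the oleic acid arrays, a difference of -2.67 (SE 0.62, adjusted p = 0.547). It passed the threshold in the deposited table (-1.87, adjusted p = 0.0152) and after normexp background correction (-1.68, adjusted p = 0.00173). Its probe lay in row 4 of the array. The 12 genes with a symbol and the largest negative differences, among those above background on all 5 arrays without overlap and with an unadjusted p under 0.05, all lay in the upper rows, among them the acetylcholine receptor chaperone Ric3 (-2.54), the nuclear pore protein Nup214 (-2.05) and the transcription factor Rfx7 (-1.92). None of these 12 passed the adjustment in the fit of 29 arrays. For Nup214 the high reading was on saline replicate 1 alone, at -0.60, while saline replicate 2 read -3.88 beside -4.35, -4.24 and -4.27 in oleic acid.

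Most heat shock genes read lower in oleic acid than in saline of 18 h, without passing the adjustment, and this was not so against saline of 24 h. Heat shock proteins are chaperones induced through the factor HSF1 when proteins unfold. The heat shock list had 19 measured genes, of which 18 were below 0 at 18 h, with a median of -0.30 beside -0.02 for all features; 0 passed the adjustment and 2 had an unadjusted p under 0.05. Averaged over the list, saline read 3.74 and 3.61 and oleic acid read 3.34, 3.25 and 3.62, so oleic acid replicate 3 lay within the saline range. Leaving out single arrays moved the list median between -0.39 (without saline replicate 2) and -0.10 (without saline replicate 1), and it was -0.19 without oleic acid replicate 2. Against saline at 24 h the list median was 0.09. Centring each array on its median moved the median of all features to 0.28 and turned the list median to 0.01.

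Hspa8, the constitutive HSP70 chaperone, read 7.57 and 7.10 in saline and 6.76, 6.38 and 6.96 in oleic acid, a difference of -0.63 (95% interval -1.12 to -0.14, unadjusted p = 0.0148, limma adjusted p = 1.00). The groups did not overlap, and both saline arrays of 24 h (7.07 and 7.01) also lay above the oleic acid arrays. Hsph1, an HSP110 chaperone, read 3.59 and 3.72 in saline and 2.57, 2.47 and 3.67 in oleic acid, where replicate 3 was at the saline level. Hspa4l, another HSP110 member, differed by -0.44 (SE 0.19), and Hsp90aa1, the inducible HSP90, by -0.42 (SE 0.20). Against saline at 24 h these differences were 0.25 for Hspa4l and -0.11 for Hsp90aa1, and 0.32 for Hsph1.

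The promoters of Hsph1 and Hspa4l are printed because both genes are in the heat shock list and differ in the letters of the heat shock element. The sequences come from RefSeq (GRCm38.p6), 300 bases around the start of each gene, Hsph1 at chr5:149636287-149636586, minus strand, and Hspa4l at chr3:40745363-40745662, plus strand. Capitals mark TTCNNGAA or GAANNTTC, each of which reads the same on both strands and which may overlap.
Hsph1: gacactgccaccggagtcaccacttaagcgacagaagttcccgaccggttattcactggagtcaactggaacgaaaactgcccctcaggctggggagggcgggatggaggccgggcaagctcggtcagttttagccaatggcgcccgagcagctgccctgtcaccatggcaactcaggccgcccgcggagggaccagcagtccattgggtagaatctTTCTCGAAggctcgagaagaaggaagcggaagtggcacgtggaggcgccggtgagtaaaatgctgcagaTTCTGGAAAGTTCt
Hspa4l: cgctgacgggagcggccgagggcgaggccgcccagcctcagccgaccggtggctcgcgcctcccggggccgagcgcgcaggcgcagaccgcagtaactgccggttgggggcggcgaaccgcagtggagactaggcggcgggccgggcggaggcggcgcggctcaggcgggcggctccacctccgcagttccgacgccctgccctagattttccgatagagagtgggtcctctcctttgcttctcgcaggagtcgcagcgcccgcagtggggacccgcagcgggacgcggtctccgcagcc
The Hsph1 window held 3 matches and the Hspa4l window 0. Of 32851 promoters of this length, 15.1% held either motif, against 12 of the 21 promoters (some genes have several) of the heat shock list. No promoter is printed for Hspa8 and Hsp90aa1.

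Cirbp, a cold-inducible RNA-binding protein that is induced by mild cooling, was on the other side. It read 2.02 and 2.34 in saline and 3.56, 2.89 and 2.52 in oleic acid at 18 h, a difference of 0.81 (95% interval 0.25 to 1.36, unadjusted p = 0.00652, adjusted p = 1.00). The groups did not overlap at 18 h. Both saline arrays of 24 h read 3.29 and 3.46, however, so that oleic acid at 18 h minus saline at 24 h was -0.39 for Cirbp. The saline arrays of 18 h were thus the lowest of the 10 arrays for this gene.

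The comparison with saline at 24 h spans different times after injection, so clock genes are given too; the labels used here state no hour of day. Their 19 measured members had a median of -0.04 at 18 h. Rora, a nuclear receptor that activates the clock gene Arntl, read 1.15 and 1.09 in saline and 0.55, 0.82 and 0.80 in oleic acid, a difference of -0.40 (SE 0.15, unadjusted p = 0.0173). Dbp, a clock output factor, read 0.55 and 0.90 in saline and 1.17, 1.45 and 1.11 in oleic acid at 18 h, against 2.63 and 2.92 in saline at 24 h. In comparisons with saline at 24 h, time and treatment cannot be told apart.

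**Figure D3:**
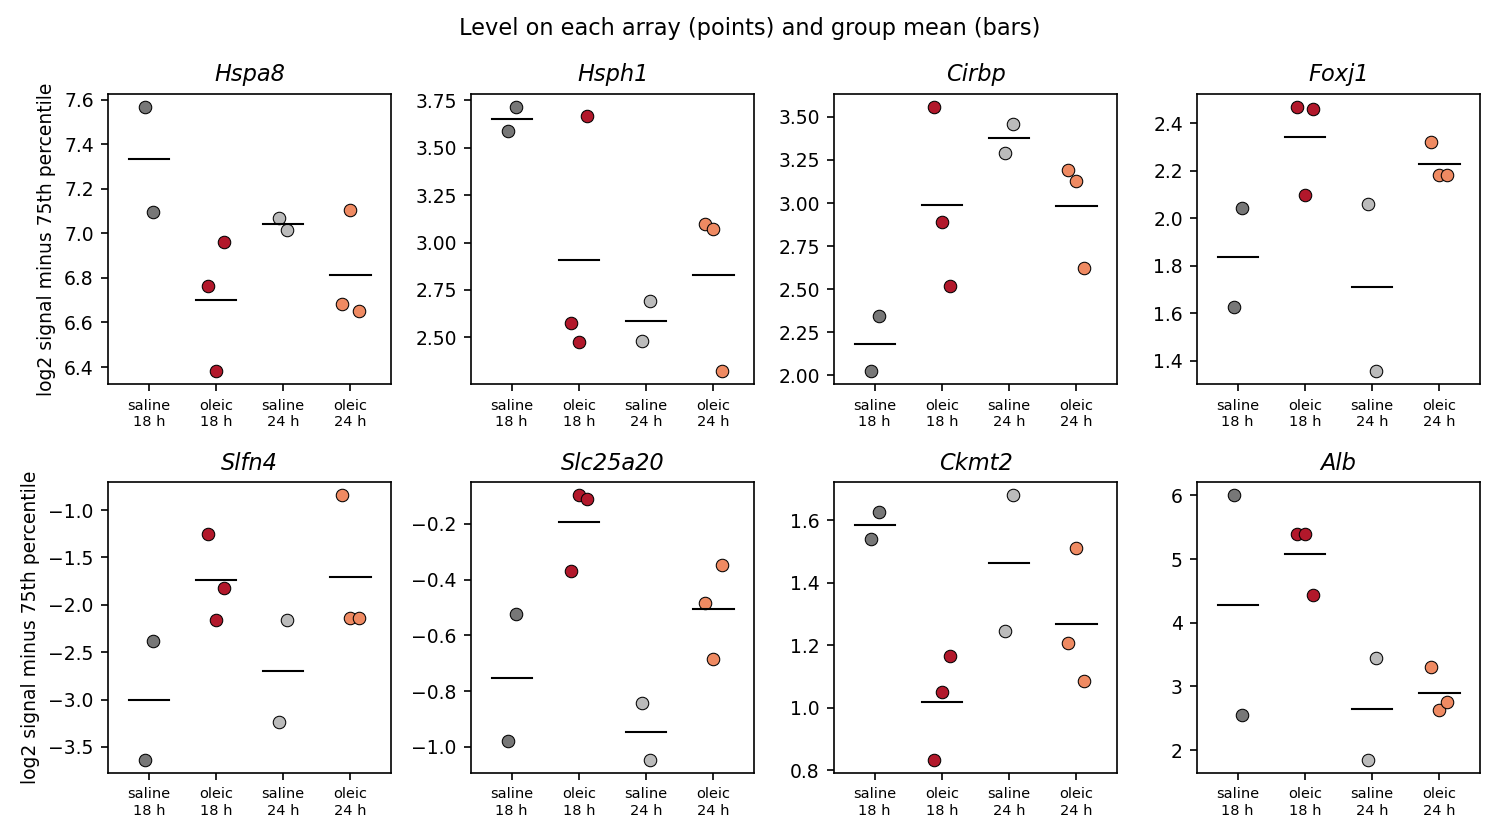
Level of 8 genes (log2 signal minus the array's 75th percentile) on each array of saline and oleic acid at 18 h and 24 h; points are arrays and bars group means, and the vertical axes differ between panels and do not start at 0. Hspa8, Cirbp, Foxj1, Slfn4, Slc25a20 and Ckmt2 do not overlap between the groups at 18 h, while Hsph1 and Alb do. Foxj1 and Slfn4 were named by rules that required no overlap. Alb spans 2.55 to 6.00 within saline at 18 h.

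Genes that handle fatty acids were measured in lists of their own. Of 42 measured PPAR targets and fatty acid oxidation genes, 32 were above 0 (76.2%, beside 45.4% of all features), with a median of 0.10; 0 passed the adjustment and 0 had an unadjusted p under 0.05. Without saline replicate 2 the median was -0.04. The median was 0.09 against saline at 24 h and 0.09 at 24 h, comparisons that share oleic acid or saline arrays with each other.

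Slc25a20, the carnitine-acylcarnitine carrier of the inner mitochondrial membrane, read -0.98 and -0.52 in saline and -0.37, -0.10 and -0.11 in oleic acid, a difference of 0.56 (SE 0.28, unadjusted p = 0.0580). It was above all 4 saline arrays of 18 h and 24 h on every oleic acid array of 18 h. Cpt1a, which makes the acylcarnitines that this carrier moves, differed by 0.36 (SE 0.24). Pdk4, a kinase that spares glucose when fat is burned, differed by 0.54 (SE 0.47).
Angptl4, a secreted lipoprotein lipase inhibitor and PPAR target, read 3.65 and 1.94 in saline and 4.17, 3.76 and 3.35 in oleic acid, so the groups overlapped. The lipid droplet coat Plin2 differed by 0.06 (95% interval -0.39 to 0.50) and the fatty acid transporter Cd36 by 0.22 (-0.28 to 0.73). The list of fatty acid uptake and lipid droplet genes had 14 of 27 above 0 and a median of 0.01, which turned negative after normexp correction, quantile normalization and in the deposited table.

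Of 20 measured genes of fatty acid synthesis and desaturation, 19 were below 0, with a median of -0.18 and 0 at an unadjusted p under 0.05. Without oleic acid replicate 1 the median was -0.04 and 8 of 20 were above 0, and without oleic acid replicate 3 it was -0.30. Scd1, the stearoyl-CoA desaturase that itself makes oleic acid, read 5.71 and 6.41 in saline and 5.03, 5.71 and 5.93 in oleic acid, which overlapped. Thrsp, a lipogenic nuclear protein, spanned -0.76 to 2.91 within oleic acid. Against saline at 24 h the list median was -0.02, and with arrays centred on the median it was 0.12. Among 27 cholesterol synthesis genes, 21 were below 0 (median -0.10), and the median was 0.13 against saline at 24 h; it was above 0 without saline replicate 1 and with arrays centred on the median. Tm7sf2, a sterol reductase, had the smallest p (-0.53, SE 0.25, unadjusted p = 0.0453).

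Genes of the unfolded protein and integrated stress response were also mostly below 0. Of 21 measured, 18 were below 0, with a median of -0.17 beside -0.02 for all features; 0 passed the adjustment and 1 had an unadjusted p under 0.05. The median was -0.09 without saline replicate 1, -0.11 without oleic acid replicate 2, -0.25 without oleic acid replicate 3 and -0.27 without saline replicate 2. That 1 gene, Trib3, a pseudokinase induced by the factors Atf4 and Ddit3, read 0.71 and 0.73 in saline and 0.50, 0.26 and 0.00 in oleic acid. Its difference was -0.46 (SE 0.22), and -0.51 against saline at 24 h. Ddit3, a stress transcription factor, differed by -0.41 (SE 0.22), and Manf, an endoplasmic reticulum stress-induced secreted factor, by -0.36 (SE 0.20). The list median was -0.17 against saline at 24 h, beside -0.12 for all features there. With arrays centred on the median it was 0.14 at 18 h, below the 0.28 of all features.

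Inflammatory genes showed no difference that passed the test. Of 23 measured chemokines, 8 were above 0 with a median of -0.02, and of 18 cytokines and growth factors, 11 were above 0 with a median of 0.10; both medians changed sign under at least 1 scaling. Il6, a cytokine, read -6.01 and -3.62 in saline and between -4.90 and -4.15 in oleic acid, near or below background on some arrays. Il1b, a macrophage cytokine, read 0.32 and 0.23 in saline and 1.98, 0.45 and 0.22 in oleic acid, where replicate 1 alone was high. Differences were 0.17 (SE 0.70) for Tnf and -0.02 (SE 0.71) for the monocyte chemokine Ccl2. Intervals of this width do not show that the groups were alike: for Ccl2 it ran from -1.52 to 1.47.

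The acute phase genes Saa1 and Saa3, serum amyloids that rise in inflamed liver and lung, varied more within groups than between them. Saa3 read 2.57 and 1.54 in saline and 0.47, -0.43 and 2.88 in oleic acid. Saa1 read 6.34 and 0.32 in saline and 3.64, 0.51 and 0.94 in oleic acid. Hmox1, an oxidant-induced heme oxygenase, differed by 0.06 (95% interval -0.57 to 0.69). The 24 Nrf2 target genes, which answer oxidants, had a median of 0.10 with 17 above 0, and the 18 NF-kappaB feedback genes a median of 0.12 with 12 above 0. Sod2, the mitochondrial superoxide dismutase induced by NF-kappaB, read 4.30 and 4.49 in saline and 4.71, 4.63 and 4.59 in oleic acid, a difference of 0.25 (SE 0.12, unadjusted p = 0.04997).

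Interferon response genes were above 0 for 25 of 32 members, with a median of 0.08 (0.13 without saline replicate 1). For 7 of them every oleic acid array exceeded both saline arrays (beside 5.23% of all features), and 0 had an unadjusted p under 0.05. The list median ran from 0.04 to 0.39 over all alternatives. Averaged over the list, saline read 0.74 and 0.65 and oleic acid read 0.93, 0.85 and 0.70. Oleic acid replicate 3 thus lay within the saline range. Trim30a, an interferon-induced ubiquitin ligase family member, read -0.07 and -0.17 in saline and 1.06, 0.07 and 0.27 in oleic acid, a difference of 0.59 (SE 0.32). Against saline at 24 h it was -0.08, and the list median was -0.08 as well, beside -0.12 for all features there. The RefSeq promoter of Trim30a at chr7:104465144-104465443, minus strand (GRCm38.p6), is shown because it holds the core of the interferon-stimulated response element. Capitals mark GAAA followed by any 2 bases and GAAA, searched on both strands, here as its reverse complement.
Trim30a: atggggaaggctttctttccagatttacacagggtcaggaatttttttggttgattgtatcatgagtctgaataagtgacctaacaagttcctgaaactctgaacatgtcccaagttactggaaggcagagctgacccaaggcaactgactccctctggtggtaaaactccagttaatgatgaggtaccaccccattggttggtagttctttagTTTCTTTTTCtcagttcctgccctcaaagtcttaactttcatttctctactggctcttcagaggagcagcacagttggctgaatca
This motif was in 3.44% of all 32851 promoters, in 14 of the 29 promoters found for the interferon list and in neither of the printed heat shock promoters. The promoters of Oasl2 and Irf7, list members that differed by 0.44 (SE 0.27) and 0.38 (SE 0.30), held no match.

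Slfn4, a Schlafen family gene expressed in myeloid cells and induced by interferon, had the largest positive difference among named genes above background on all 5 arrays whose groups did not overlap and whose unadjusted p was under 0.05. It read -3.63 and -2.38 in saline and -1.25, -2.16 and -1.82 in oleic acid, a difference of 1.26 (SE 0.52, unadjusted p = 0.0263, adjusted p = 1.00). At 24 h oleic acid minus saline was 0.99. Its relative Slfn2 differed by 0.60 (SE 0.27) at 18 h and by -0.12 at 24 h. Other genes with a high positive difference were Rsph14, a radial spoke protein of cilia (0.79, SE 0.30), and Foxo3, a forkhead factor (0.66, SE 0.28), whose second probe had the opposite sign.

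In whole lung, fewer cells of a type and less RNA per cell cannot be told apart. Markers of ciliated cells were above 0 for 28 of 31 members, with a median of 0.15, and for 9 of them every oleic acid array exceeded both saline arrays (beside 5.23% of all features). Foxj1, the transcription factor that drives motile ciliogenesis, read 1.63 and 2.04 in saline and 2.47, 2.10 and 2.46 in oleic acid, a difference of 0.51 (95% interval 0.07 to 0.95, unadjusted p = 0.0265, adjusted p = 1.00). It also exceeded both saline arrays of 24 h (2.06 and 1.36), with a difference of 0.63. The other ciliated markers moved less against saline at 24 h: the list median there was 0.04, and Cfap126, Lrrc23 and Rsph1, axonemal proteins, differed by -0.15, -0.04 and 0.10, against 0.26, 0.25 and 0.28 at 18 h. 

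Over all features, the oleic acid arrays of 18 h read above all 4 saline arrays for 0.771% and below all 4 for 2.69%. A rule took named genes that were well above background on every one of these arrays and read above all 4 saline arrays. It also required an unadjusted p under 0.05 in limma against both saline groups, and Foxj1 was 1 of 4 that met it. The others were Lrrn4, a leucine-rich repeat protein of mesothelium (0.49 and 0.70 against saline of 18 h and 24 h), Rdh13, a mitochondrial retinol dehydrogenase (0.56 and 0.63), and Zfp623, a zinc finger protein (0.51 and 0.71). These 4 kept a positive difference under all alternatives run. For leaving out single arrays and for pooling saline of 18 h and 24 h, this followed from the rule that chose them. In the other direction, 28 named genes met the same rule. The 8 ranked highest by the smaller of their 2 differences were the odorant and vomeronasal receptors Olfr521, Olfr103, Olfr48, Vmn1r217 and Vmn1r87, with Csrnp3, Gml2 and the testis tubulin Tuba3a. Tuba3a read -3.19 and -2.38 in saline and -4.54, -4.16 and -4.34 in oleic acid, a difference of -1.56 (SE 0.36, adjusted p = 0.539).

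Alveolar type 2 markers were below 0 for 24 of 28 members, with a median of -0.12. Against saline at 24 h it was -0.24, beside -0.12 for all features there. At 18 h the list median was -0.19 without saline replicate 2. Every oleic acid array was below both saline arrays for 6 members (beside 6.66% of all features), among these Lyz1, a lysozyme, which read 6.62 and 6.51 in saline and 6.31, 6.24 and 6.31 in oleic acid (-0.28, SE 0.16), and the protease Ctsh (-0.21, SE 0.16). Sftpc differed by -0.19 (95% interval -0.76 to 0.38). Median centring turned the list median to 0.19, below all features. The alveolar type 1 marker Ager differed by 0.02 (-0.43 to 0.48). For Aqp5, a water channel of the same cells, the difference was 0.10 (-0.28 to 0.49), and for endothelial Cldn5 it was 0.00 (-0.51 to 0.52).

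Cardiac muscle markers, which mouse lung carries in the myocardial sleeve of the pulmonary veins, were below 0 for 20 of 22 members, with a median of -0.28 (-0.18 without saline replicate 2). Oleic acid was below both saline arrays of 18 h for 10 members (beside 6.66% of all features) and below all 4 saline arrays for 6 (beside 2.69%). Ckmt2, the mitochondrial creatine kinase of muscle, read 1.54 and 1.63 in saline and 0.83, 1.05 and 1.17 in oleic acid, a difference of -0.57 (SE 0.28, unadjusted p = 0.0544). The mean level of the list ranged from 1.202 to 1.51 in oleic acid at 18 h. It was 1.45 to 1.80 in saline at 18 h and 1.54 to 1.82 in saline at 24 h. The median of oleic acid minus saline at 24 h was -0.03, above the -0.12 of all features. Under median centring the list median was 0.02. How much atrial or venous tissue each sample held was not measured.

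Blood and immune markers varied between arrays of a group. The neutrophil list had 20 of 27 members above 0 (median 0.17) and was -0.17 against saline at 24 h, where all features had a median of -0.12. Its median at 18 h was below 0 without oleic acid replicate 1 and with both saline times pooled, and its alarmin S100a9 differed by 0.43 (95% interval -0.64 to 1.49). B cell markers were above 0 for 17 of 21 (median 0.21, from 0.07 without saline replicate 2 to 0.30 without oleic acid replicate 2), and Cd79a, a B cell receptor chain, differed by 0.52 (SE 0.34). Platelet and megakaryocyte markers were below 0 for 17 of 20, with a median of -0.38, which was 0.02 without saline replicate 1. Erythroid markers were below 0 for 13 of 13 measured (median -0.29, from -0.46 without saline replicate 2 to -0.10 without saline replicate 1), with mean levels of 0.78 and 0.38 in saline and -0.18, 0.64 and 0.21 in oleic acid, which overlapped. 0 members of these lists passed the adjustment.

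**Figure D4:**
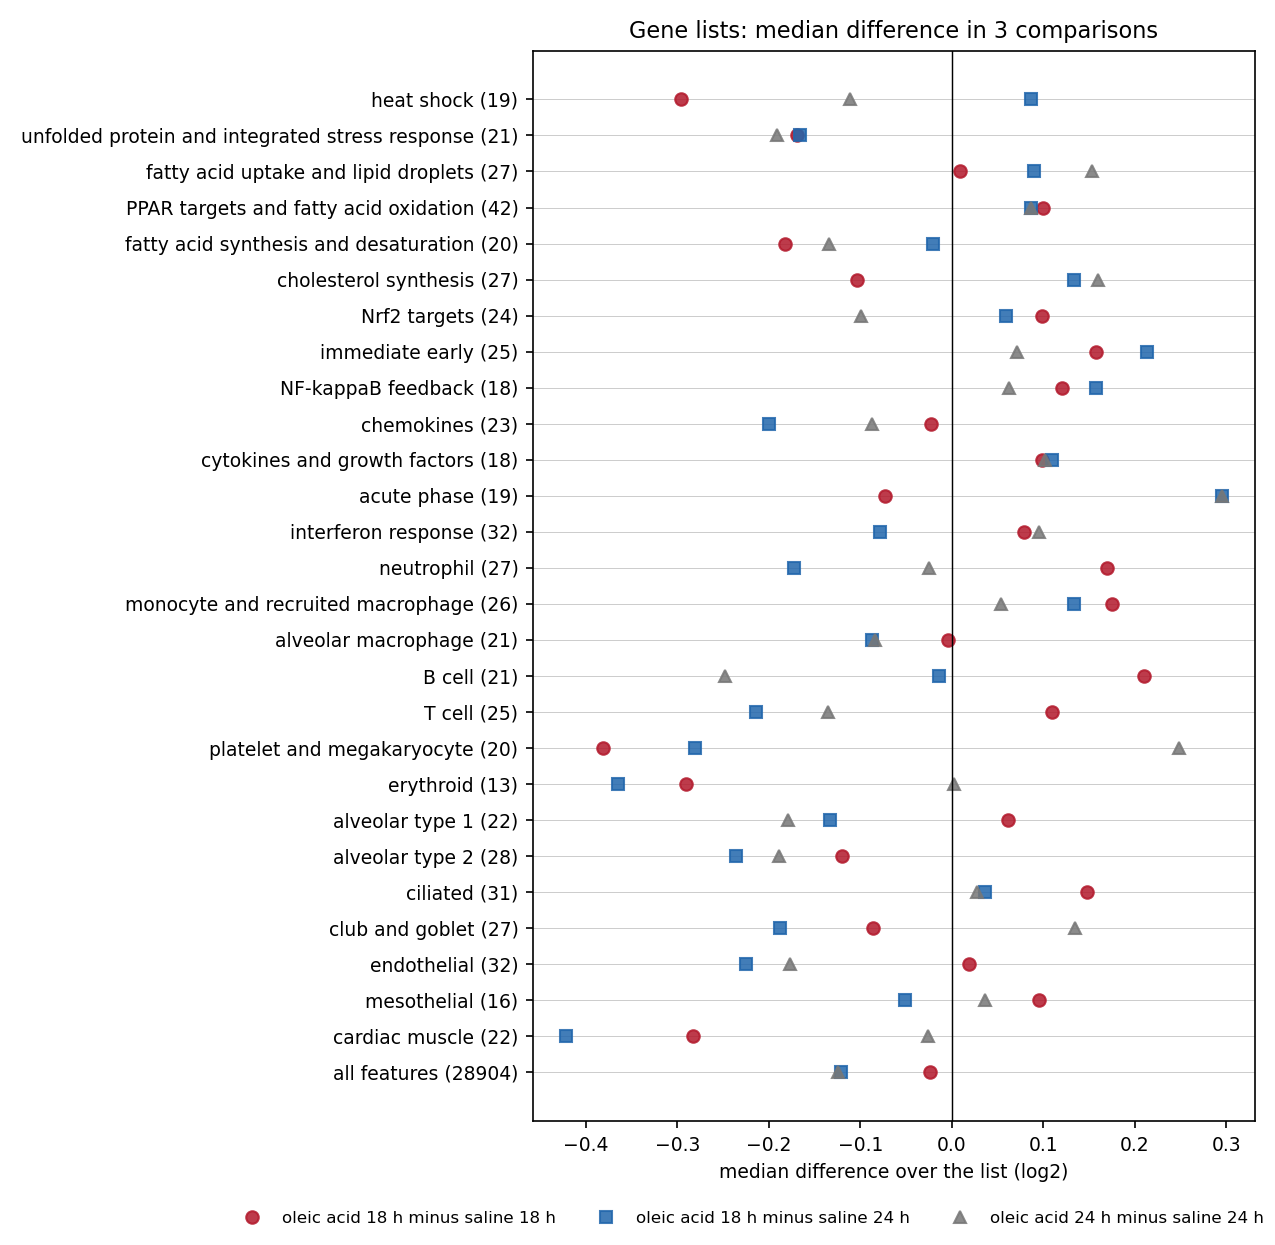
Median difference over each gene list (log2), with the number of measured members in brackets, for oleic acid minus saline at 18 h (circles), oleic acid at 18 h minus saline at 24 h (squares) and oleic acid minus saline at 24 h (triangles); the comparisons share arrays, and no error is drawn. The heat shock list is at -0.30 against saline at 18 h and at 0.09 against saline at 24 h. The cardiac muscle list is at -0.28 and -0.42 in these 2 comparisons. For oleic acid minus saline at 24 h it is at -0.03, above the -0.12 of all features.

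Transcripts of liver and plasma proteins were the most variable. Alb, albumin, read 6.00 and 2.55 in the 2 saline samples of 18 h and 5.39, 5.40 and 4.44 in oleic acid, while the arrays of 24 h read between 1.85 and 3.44. Apoa1 and Ttr, plasma carriers made by hepatocytes, were also highest on saline replicate 1 and lowest on saline replicate 2 among the 5 arrays. Apoa1 read 2.34 and -2.43 in saline and 0.83, 1.11 and 0.41 in oleic acid. The list median was 0.58 against saline at 18 h and 1.87 against saline at 24 h, and it was -1.54 without saline replicate 2, so its sign rested on that array. The part of these transcripts in the other lists was not tested, except that Saa1, an acute phase gene made in liver, was also highest on saline replicate 1.

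Against the saline arrays of 24 h on the same slide, 0 of 28904 features passed the adjustment (0%), while 3586 had an unadjusted p under 0.05, 682 higher and 2904 lower. The smallest adjusted p was 0.104. Saline at 24 h against saline at 18 h, across 2 slides and 2 times with no oleic acid, gave 3 calls (0.0104%) and 3004 features at an unadjusted p under 0.05, and all 3 calls were among the 7 called for oleic acid at 18 h. Beside these, 696 features had an unadjusted p under 0.05 for oleic acid against saline at 18 h. With arrays centred on the median, the 3586, 3004 and 696 features became 687, 691 and 421. With all 31 arrays they were 470, 359 and 212. The median of oleic acid at 18 h minus saline at 24 h, over all features, also moved. It was -0.04 without saline replicate 1 of 24 h and -0.24 without saline replicate 2 of 24 h. The test of the effect at 18 h minus the effect at 24 h called 4 features (0.0138%), all of them among the same 7, with 827 at an unadjusted p under 0.05. The comparisons share arrays, so their calls are not independent.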

How the data were processed

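Gene lists and members were chosen with earlier results of these data known. The authors deposited scanner files and a table. Agilent Feature Extraction (10.5.1.1, per the submitters' processing notes) gave, in the deposited files, each spot's processed signal intensity (background-subtracted, linear scale) and flags, other values that mark outlier spots and spots well above background. The deposited table holds the authors' log2 values; it was used as an alternative. Processed intensity was log2-transformed and the array's 75th percentile subtracted. Outlier spots were left out, spots of a probe averaged, and probes kept when above background on all arrays of at least 1 group. The kept probe with the highest mean stood for a gene; symbols came from RefSeq (GRCm38.p6). Groups were fitted in limma 3.58.1 (R 4.3.3) on 29 of 31 arrays (without oleic acid 1.5 h replicate 3 and 3 h replicate 2, whose spike-in slopes were 1.66 and 0.751), with Benjamini-Hochberg adjustment over 28904 features. The shared spread thus comes from all 12 groups.

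Named genes were the 12 largest positive and negative differences without overlap at p under 0.05 (above background on all 5 arrays). Added were the 5 largest bounds each way, those called, 4 per list by p, and a fixed list of common genes. Up to 8 more each way lay beyond all 4 saline arrays at p under 0.05 against both saline groups. Slide as a fixed term cannot give the comparison at 18 h. The fit was tested on simulated data. Replicate numbers were not shown to pair the samples, and the labels give no shared litter or day. Of 12 pairs of same-numbered saline and oleic acid samples, deviations correlated above 0.1 in 7. Both pairs of 18 h were among these, at 0.526 and 0.632.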

Additional observations from a re-analysis of the deposited data

Results flagged for a closer look

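The difference between the effect at 18 h and the effect at 24 h passed an adjusted p of 0.05 (limma, adjusted p = 0.0260 for each) for 4 features: Olfr73 at -4.46, the probe A_30_P01018456 at -3.63, the probe A_30_P01023518 at -3.76 and the probe A_55_P2092551 at -3.76 (log2, fitted values of probes not above background on any oleic acid array of 18 h, so no bounds). Each read higher on both saline arrays of 18 h than on the other 8 arrays of 18 h and 24 h, and each lies in rows 1 to 65 of the array. Groups of 2 and 3 arrays were too small for a check of single arrays that lie apart.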

How the results depend on the processing

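Counts of called features are given for 4 comparisons in the order oleic acid against saline at 18 h, oleic acid at 18 h against saline at 24 h, saline at 24 h against saline at 18 h, and effect at 18 h minus effect at 24 h. The reported counts were 7, 0, 3 and 4. They were 3, 0, 1 and 0 with all 31 arrays, 2, 0, 0 and 0 with the 10 arrays of 18 h and 24 h, 7, 1, 1 and 0 after normexp, 3, 0, 4 and 1 after quantile normalization, 9, 1, 0 and 0 with arrays centred on the median, 12, 0, 7 and 4 in the deposited table, 7, 1, 4 and 0 with no filter, 5, 0, 2 and 2 with array weights, 14, 21, 3 and 4 with the share of spots above background as a covariate, and 4, 0, 2 and 0 at an adjusted p of 0.01. All 4 were 0 in limma with only probes above background on all 5 arrays (447, 3405, 2792 and 675 at an unadjusted p under 0.05), with trend and robust eBayes (616, 3798, 3185 and 863) and with the replicate block (643, 510, 635 and 819), where numbers were not shown to pair samples. The first count was 0 with the 5 arrays alone (450 at an unadjusted p under 0.05), with saline of 18 h and 24 h pooled (1139) and with saline of slides 3 and 4 pooled (3065). Alternatives chosen after seeing the data gave 0, 2, 0 and 0 with features of the lower rows of the array alone (216, 1813, 1424 and 339 at an unadjusted p under 0.05) and 0 for all 4 at a mean level of at least -2 (225, 3044, 2537 and 532). Leaving out single arrays gave 4 to 39, 0 to 28, 3 to 33 and 0 to 14, the highest without saline 24 h replicate 1 for oleic acid at 18 h against saline at 24 h and without saline 18 h replicate 2 for the others. Without both arrays with the most spots above background the counts were 46, 0, 36 and 14. The cause was not tested. Slide as a random block (correlation within slides -0.048) left the counts at 7, 0, 3 and 4. That fit cannot tell slide from treatment at 18 h. The 7 called features have 176 values under the alternatives, of which 84 lost the call. They were not always the features called elsewhere: 2 of the 7 remained called after normexp and 2 in the deposited table. Over all 6567 values of single genes and probes, most of which were never called, 263 changed sign and 8 gained a call. Of 1344 list medians, 173 changed sign. Treatment, slide and slide row cannot be told apart, and signal near background limits the dim features, which hold the largest differences.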
